A study of Homo sapiens with 2 samples.

Results

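Notch signalling genes were read in outgrowth cultures of HUES9, a human line of embryonic stem cells, grown with or without SB-431542, a small molecule that blocks the activin-like type I receptors used by TGF-β, activin and nodal. The genes were the receptors NOTCH1, NOTCH2 and NOTCH3, the ligands DLL1, JAG1 and JAG2, and the transcription factor genes HES1, HEY1, HEYL and HES6. They are 10 of 19775 genes that have a probe set of their own on the Affymetrix array. Every probe set that the platform annotation gives to 1 of them alone was read, 26 in all.

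HUES9 cells at passage 32 formed embryoid bodies for 10 days. These were plated on fibronectin in chemically defined medium and the cells growing out of them were passaged. The SB-OG culture received SB-431542 at 10 µM as embryoid bodies and at 1 µM as outgrowths, and the control-OG culture received 0.01% DMSO. At outgrowth passage 5, 3 samples per condition were mixed and the mixture was hybridised to 1 array, giving n = 1 in each condition. Replicate spread is therefore unknown, no test was made, and precision is limited by the number of arrays. The cells come from 1 line, and mixing removed any view of the spread between the 3 samples.

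Notch receptors are single-pass membrane proteins that are activated by ligands of the Delta and Jagged families on a neighbouring cell. Ligand binding lets the metalloprotease ADAM10 and then the γ-secretase complex cut the receptor, and the freed intracellular domain joins the DNA-binding protein RBPJ and a Mastermind coactivator to switch on genes such as those of the HES and HEY repressors. In developing skeletal muscle, the pathway is known for keeping progenitors from differentiating, with DLL1 as a main ligand and HEY1 and HEYL among the targets. HES6 stands apart in its family, as it is known to oppose HES1 and to favour differentiation.

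Promoters are shown for HES6 and for HES1 and HEYL, known Notch targets. In SB-OG the HEYL signal was at least 48.9-fold higher and that of HES1 was within 2-fold. RBPJ recognises a core of TGGGAA. This core was searched on both strands from 250 bases before to 50 bases after the gene start in the RefSeq promoter table of GRCh38.p14. The search covered 8 of the 10 members and left out DLL1 and HEY1, so nothing is known here of their promoters. The core was present in 2 of the 8 searched members, HES1 and HEYL, and in 24.0% of the 35116 promoters of the same length in the table. The 250 bases before each start are printed on the strand of the gene, with matches to the core or its reverse complement in capitals. The HES1 stretch is chr3:194135898-194136147 on the plus strand, the HEYL stretch chr1:39639644-39639893 on the minus strand and the HES6 stretch chr2:238240039-238240288 on the minus strand.
HES1: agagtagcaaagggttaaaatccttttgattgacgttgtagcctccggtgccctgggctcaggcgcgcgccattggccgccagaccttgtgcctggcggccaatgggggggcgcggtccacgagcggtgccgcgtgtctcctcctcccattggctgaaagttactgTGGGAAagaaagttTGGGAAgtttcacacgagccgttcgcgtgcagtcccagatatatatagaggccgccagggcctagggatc
HEYL: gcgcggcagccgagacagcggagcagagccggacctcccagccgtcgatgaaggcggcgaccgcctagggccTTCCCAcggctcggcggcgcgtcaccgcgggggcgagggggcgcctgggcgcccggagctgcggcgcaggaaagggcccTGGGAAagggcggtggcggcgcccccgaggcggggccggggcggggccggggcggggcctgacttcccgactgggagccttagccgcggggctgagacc
HES6: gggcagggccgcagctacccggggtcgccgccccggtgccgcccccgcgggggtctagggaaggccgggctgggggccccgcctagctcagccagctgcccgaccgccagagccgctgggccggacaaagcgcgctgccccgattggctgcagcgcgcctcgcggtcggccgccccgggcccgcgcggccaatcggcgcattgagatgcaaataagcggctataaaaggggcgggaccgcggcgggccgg

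The HES1 matches began at positions -84 and -70 relative to the start, both on the strand of the gene. Those of HEYL began at -178, on the opposite strand, and at -99. NOTCH1, NOTCH2, NOTCH3, JAG1, JAG2 and HES6 had no match in this window. The N-box CACNAG, which HES proteins bind, had 4 matches in the HES1 window and none in those of HEYL and HES6, and was found in 38.0% of all promoters. The E-box CACGTG, bound by HEY proteins, had no match in any of the 8, and 7.26% of all promoters held it. A match is a string of letters in this window and no measure of binding.

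Signals are linear intensities as deposited. Background was set on each array at the 95th percentile of signals from gene families assumed silent in these cells, such as olfactory receptors. This level was 32.1 for the control-OG array and 27.2 for the SB-OG array, and lower values were set to it before a difference was taken. Folds of a gene above background on 1 array only are therefore bounds, written "at least". The brightest probe set stands for a gene, and outside the marker sums no level is set against that of another probe set. Those sums add intensities of different probe sets as deposited, also those under background, so bright probe sets weigh most in them. As a yardstick, log2 differences of probe sets of one gene, above background on both arrays, varied with an SD of 0.47 over 4953 genes. This probe-set SD holds no spread between arrays or cultures.

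All 10 members were above background on at least 1 array. In 7 the SB-OG signal exceeded that of control-OG 2-fold or more and in none was it 2-fold lower, where 12.4% of 12557 genes above background were 2-fold higher and 13.0% 2-fold lower. The 7 were NOTCH3, DLL1, JAG1, JAG2, HEY1, HEYL and HES6, and the 3 within 2-fold were NOTCH1, NOTCH2 and HES1. DLL1, JAG2, HEYL and HES6 were above background on SB-OG only, as were 1236 of the 12557 genes. Entry of these members into the count thus came from the array on which they were high. The median log2 difference, SB-OG minus control-OG, was 2.96 for the members with bounds at their bound, and -0.02 for all genes above background. Of the 26 probe sets, 20 passed the background level on at least 1 array, as did 23511 of the 41091 with 1 gene. Among the 20, 13 were at 2-fold or more above control-OG and none 2-fold below it. The shares among the 23511 were 12.7% and 12.0%. In 4 genes (JAG1, JAG2, HEY1 and HEYL) at least 2 probe sets were each 2-fold higher, while the other 3 rest on 1 probe set each. In bulk RNA, fewer cells of a type and less RNA per cell cannot be told apart.

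**Figure D1:**
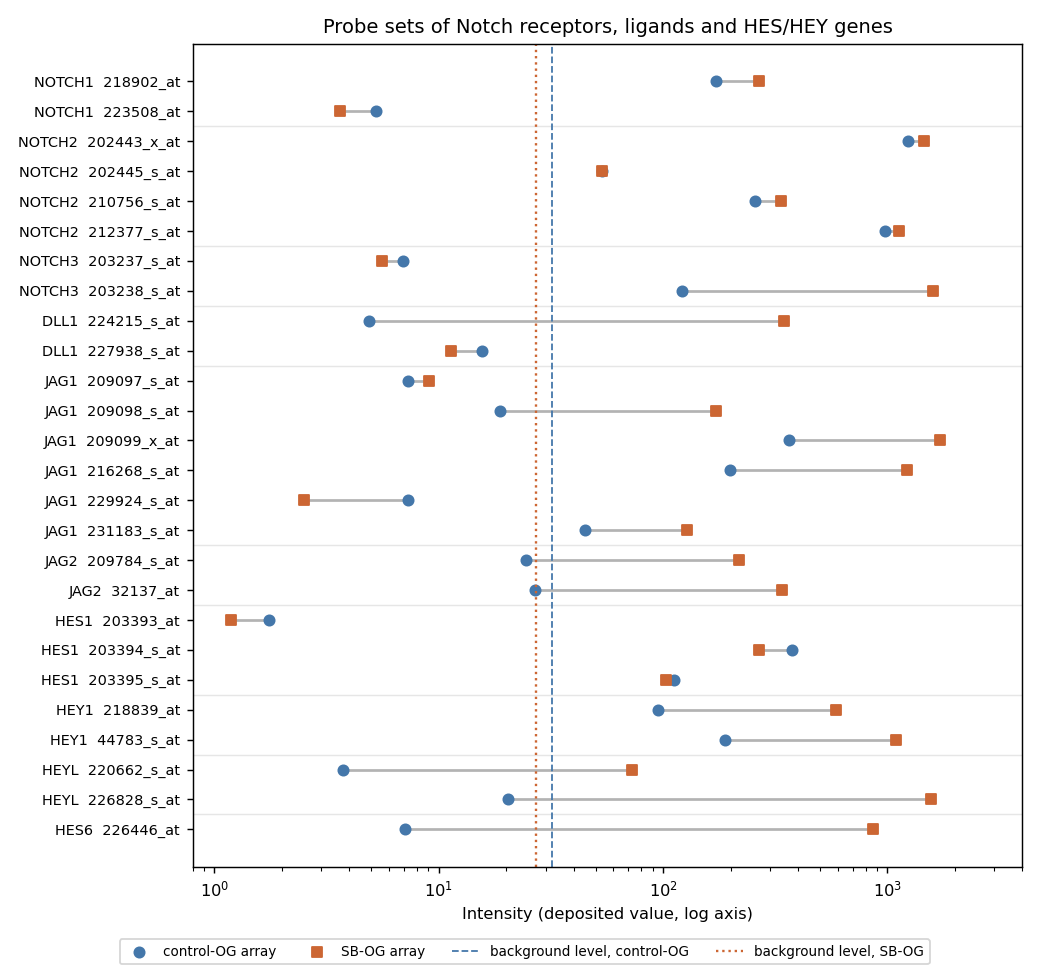
Intensity on a log axis of the 26 probe sets of the 10 genes, with circles for the control-OG array, squares for the SB-OG array and vertical lines at the background levels of 32.1 and 27.2. The 2 marks of each NOTCH2 probe set lie close together, whereas 1 of the NOTCH3 probe sets and those of JAG2, HEY1, HEYL and HES6 have the SB-OG mark far to the right.

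The receptors divided. NOTCH1, known as a receptor of many progenitor cells, read 173 on the control-OG array and 268 on the SB-OG array, a 1.55-fold difference. Its other probe set was under background on both arrays, at 5.27 and 3.63. This difference became 2-fold (1.11 on the log2 scale) when arrays were scaled on the hybridisation controls, which moved every gene up by 0.48 on that scale, and was -0.04 in the mean of both probe sets.

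NOTCH2, a broadly expressed receptor, read 1232 on the control-OG array and 1463 on the SB-OG array by its brightest probe set, 1.19-fold higher. The other probe sets read 972 and 1121, 256 and 334, and 53.7 and 53.4. All 4 log2 differences lay between -0.01 and 0.39, each smaller in size than the probe-set SD. A further probe set, which the annotation shares between NOTCH2 and its NOTCH2NL copies, read 270.2 and 194 and was left out by the rule. Transcripts of those copies resemble NOTCH2, and their part in the NOTCH2 signal is unknown.

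NOTCH3, the receptor known from vascular smooth muscle cells and pericytes and also present in muscle progenitors, read 122 on the control-OG array and 1600 on the SB-OG array, 13.2-fold higher. Of all genes above background, 1.33% had a higher difference. A second NOTCH3 probe set was under background on both arrays, at 6.93 and 5.56, so the signal of this gene comes from 1 probe set. The log2 difference of NOTCH3 was 3.72 by that probe set and 1.56 in the mean of both. NOTCH4, the receptor of endothelial cells, was not above background on either array, at 26.9 and 20.4.

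The 3 ligand genes were all higher in SB-OG. DLL1, a Delta ligand, read 4.88 on the control-OG array and 346 on the SB-OG array, at least 10.8-fold higher. Its other probe set was under background on both arrays, at 15.6 and 11.4. When both were averaged, the log2 difference was 0.97, just under 2-fold.

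JAG1, a Jagged ligand, was the ligand gene above background on both arrays. By the brightest probe set it read 365 on the control-OG array and 1709 on the SB-OG array, 4.68-fold higher. The others above background read 199 and 1220 (6.14-fold), 44.9 and 128 (2.85-fold), and 18.8 and 172.5 (at least 5.37-fold). All 4 probe sets thus went the same way, with log2 differences from 1.51 to 2.62. Both remaining JAG1 probe sets were under background on both arrays, at 7.27 and 9.06 and at 7.28 and 2.52.

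JAG2, the second Jagged ligand, read 27.0 on the control-OG array and 339 on the SB-OG array, at least 10.6-fold higher. Its other probe set read 24.4 and 219, at least 6.81-fold higher. Both control-OG values were near but under the background level of that array. DLL4, an endothelial ligand, was not above background on either array, at 4.90 and 11.1. DLL3, which acts mainly inside the cell, was not above it by its brightest probe set either, at 23.0 and 20.9, and another of its probe sets was above background on control-OG only, at 37.3 and 2.55.

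The target genes also divided, and HES1 was the member with a negative difference. HES1, a repressor that keeps progenitors undifferentiated, read 376 on the control-OG array and 268 on the SB-OG array, 1.40-fold lower. A second probe set read 112 and 103, 1.08-fold lower, and the third was under background on both arrays, at 1.75 and 1.18. Its log2 difference of -0.49 was about the size of the probe-set SD, and it was -0.02 when arrays were scaled on the hybridisation controls.

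HEY1, a repressor that partners with HES proteins, read 189 on the control-OG array and 1089 on the SB-OG array, 5.75-fold higher. Its second probe set read 94.6 and 589, 6.23-fold higher. These 2 probe sets differed by less than the probe-set SD, with log2 differences of 2.52 and 2.64.

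HEYL had the highest bound among the members, while without a floor HES6 was higher (log2 differences of 6.28 for HEYL and 6.92 for HES6), as it was in the mean of all probe sets (3.40 and 4.74). It read 20.3 on the control-OG array and 1570 on the SB-OG array, at least 48.9-fold higher. The second HEYL probe set read 3.73 and 73.0, at least 2.28-fold higher. That second SB-OG value was under the stricter background level of 76.7 on SB-OG, the 99th percentile of the silent families.

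HES6, the family member without an RBPJ core in its printed promoter, read 7.09 on the control-OG array and 859 on the SB-OG array. It was at least 26.8-fold higher. The array carries 1 probe set for HES6 alone, and its name has no mark of cross-hybridisation.

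**Figure D2:**
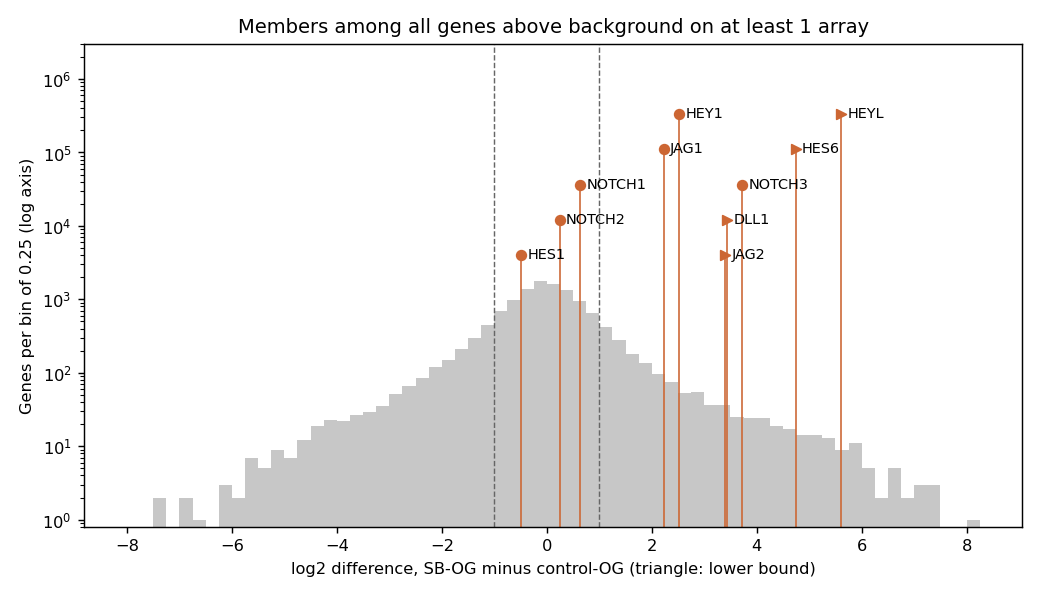
Grey bars count the 12557 genes above background by log2 difference, SB-OG minus control-OG, on a log axis, and stems mark the members, with triangles for lower bounds and dashed lines at 2-fold. The height of a stem only makes room for its name. HES1, NOTCH2 and NOTCH1 lie in the central peak, and the other 7 lie between 2.23 (JAG1) and 5.61 (HEYL).

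The other genes of the pathway went both ways. Of 62 listed, 58 had a probe set of their own and 47 were above background. Of these 47, 8 were 2-fold or more higher and 9 lower, beside the 12.4% and 13.0% of all genes, and the median log2 difference was -0.06. With scaling on the hybridisation controls 15 were 2-fold higher and 4 lower, the median was 0.41, and of all genes 24.3% were then higher and 7.23% lower.

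Of 4 ligand endocytosis genes measured, 1 was 2-fold higher and none 2-fold lower. NEURL1B, a ubiquitin ligase of ligand endocytosis, was 5.20-fold higher in SB-OG, from 94.4 to 491. MIB1, the main ligase of that step, read 634 and 1164, 1.84-fold higher, and 3 further probe sets gave log2 differences of 1.03 to 1.69. MIB2, a related ligase, was 1.96-fold lower, with other probe sets at -0.99 and 0.25. Of the 7 non-canonical ligand genes measured, 3 were 2-fold lower and none was 2-fold higher. MFAP5 and MFAP2, microfibril proteins reported to bind Notch or its ligands, were 8.05-fold and 6.34-fold lower, and CNTN1, a neural adhesion molecule, at least 2.56-fold lower. DLK1, a Delta-like protein without the usual receptor-binding domain, read 1426 and 1791.

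Among receptor-modifying enzymes, LFNG, the Fringe sugar transferase that shifts receptors toward Delta ligands, read 12.2 on the control-OG array and 226 on the SB-OG array, at least 7.04-fold higher. POGLUT1, a glucosyltransferase for the receptor's EGF repeats, was 2.29-fold lower. ADAM10, the protease of the first ligand-induced cut, went from 5681 to 2374, 2.39-fold lower, with both other probe sets also lower. PSEN2, a catalytic subunit of γ-secretase, was 5.05-fold higher, from 150 to 759, and its other probe sets were at log2 differences of 2.01 and 2.22.

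RBPJ, the DNA-binding partner, was 1.58-fold higher, from 1614 to 2543. Its Mastermind coactivators differed from each other, as MAML3 was at least 4.36-fold higher, MAML1 1.72-fold higher and MAML2 2.13-fold lower. BEND6, a corepressor of the RBPJ complex, was 2.66-fold lower. Of the genes that limit or turn over the receptor, FBXW7, which marks the intracellular domain for breakdown, was 3.15-fold higher and DTX4, a Deltex ligase, 2.54-fold higher, whereas DTX3 read 234 and 51.8, 4.53-fold lower. Another DTX3 probe set, above background on SB-OG only, went the other way, at 17.3 and 27.4. NUMB was not above background by its own probe set, at 21.7 and 19.4.

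Of the other target genes, all 5 measured were above background on 1 array only, 3 on SB-OG and 2 on control-OG. Of the 12557 genes above background, 1236 were so on SB-OG only and 882 on control-OG only. HES4 was at least 3.85-fold higher in SB-OG, from 23.7 to 123. HEY2, the third HEY gene, read 20.2 and 56.1 by the probe set that stands for it, at least 1.75-fold higher, and 5.32 and 86.9 by the other, at least 2.71-fold higher. The HEY2 value of 56.1 was under the stricter SB-OG background level of 76.7. BHLHE41, a related repressor, was at least 3.37-fold lower. NRARP, a feedback inhibitor that the pathway induces, read 52.9 and 55.7, and HES5 was not above background, at 2.29 and 2.61.

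**Figure D3:**
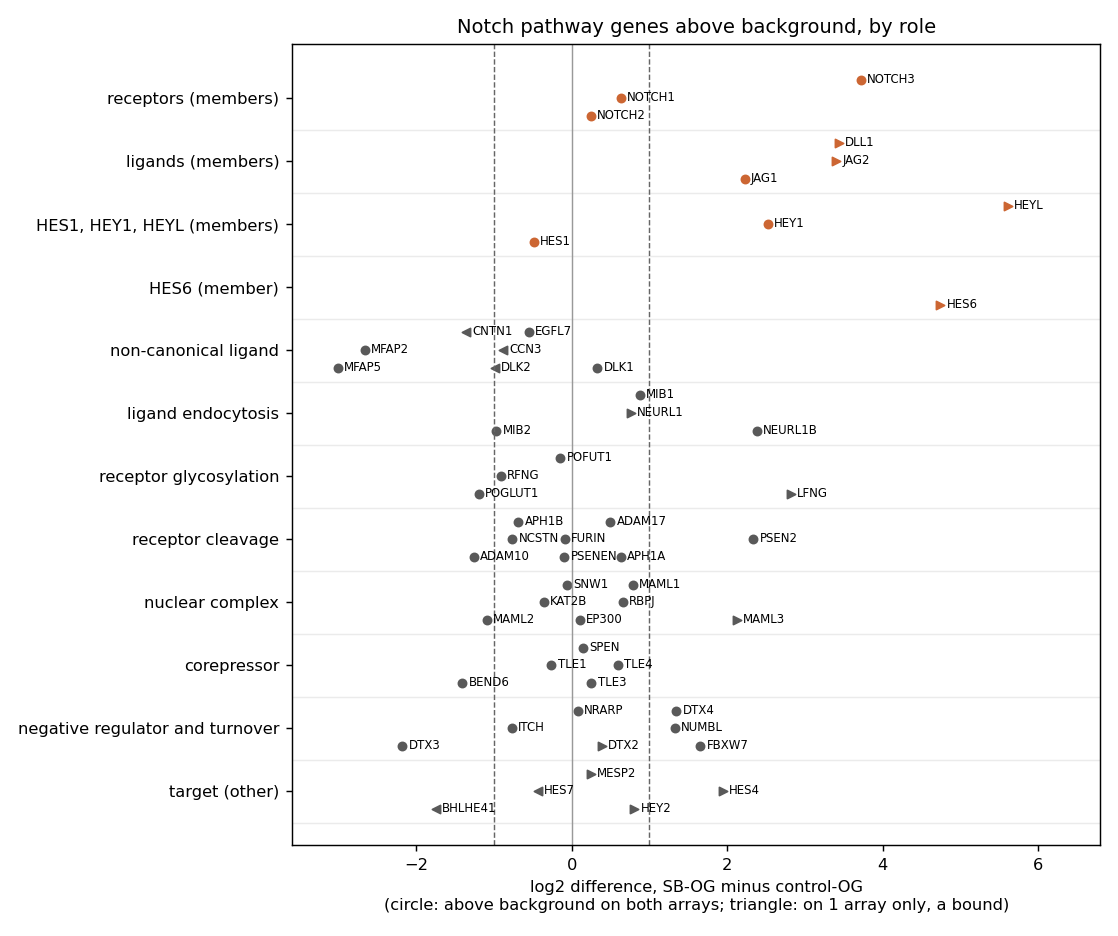
Log2 difference, SB-OG minus control-OG, of members (orange) and other pathway genes (grey) above background, in rows by role, with circles for genes above background on both arrays, triangles for bounds and dashed lines at 2-fold. Ligand members all lie beyond 2-fold to the right, while the grey rows hold 8 genes beyond 2-fold on the right and 9 on the left.

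Markers of cell types also differed between the arrays, in both directions. Of 9 skeletal muscle markers, 8 were above background, and these 8 were each 2-fold or more higher in SB-OG, and the list's summed intensity went from 302.5 to 33330. MYOD1 read 7.25 and 1155 and MYOG 7.66 and 688, while MYF5 was under background on both arrays. Of 7 mural cell markers, among which NOTCH3 itself is counted, 5 of 6 above background were 2-fold higher, and CSPG4 was 1.84-fold lower. Besides NOTCH3, MCAM was 17.0-fold higher, while RGS5 (2.4-fold), PDGFRB (2.07-fold) and ABCC9 (at least 2.15-fold) lay near the threshold. The sums of the 7 mural cell markers were 687 and 3338, to which NOTCH3 gave 122 and 1600. The summed signal of 6 endothelial markers was 1385 and 98.8. KDR and TEK were at least 34.3-fold and 14.8-fold lower, and CDH5, VWF and ERG were under background on both arrays. PECAM1 went the other way, from 25.5 in control-OG to 37.9 in SB-OG, where it passed the background level. This made it at least 1.18-fold higher.

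Of 6 epithelial markers, 4 were above background, 3 of them 2-fold lower and 1 higher, with sums of 16530 and 461. The lower ones were the keratin genes KRT8 (2895 and 56.5), KRT18 (8655 and 294) and KRT19 (4918 and 0.81). CDH1 was at least 2.58-fold higher, at 26.9 and 82.8, and EPCAM and CLDN4 were under background on both arrays. Of 7 neural markers with a probe set, 4 were above background, with sums of 6877 and 10600, to which TUBB3 gave 4141 and 6918. DCX (32.5 and 1392) and NEFM (58.4 and 2233) were more than 2-fold higher, and STMN2 (2606 and 24.3) was at least 95.8-fold lower. PAX6 and NEUROG2 were under background on both arrays. SOX1 was under it by its brightest probe set, and another read 1.63 and 41.9. Of 4 neural crest and glial markers with a probe set, SOX10 and TFAP2B were under background on both arrays and ERBB3 was higher, with sums of 53.1 and 1052. NANOG and LIN28A, markers of pluripotent cells, were under background on both arrays. DPPA4, another such marker, was under it by the probe set that stands for it, and a second read 2.22 and 42.7. SOX2 read 14.2 and 147, and by another probe set 35.0 and 33.3. The 7 proliferation genes were all above background, with 2 of them 2-fold higher and a median log2 difference of 0.77. The part of muscle, mural, endothelial, epithelial, neural or dividing cells in the Notch gene values was not tested.

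**Figure D4:**
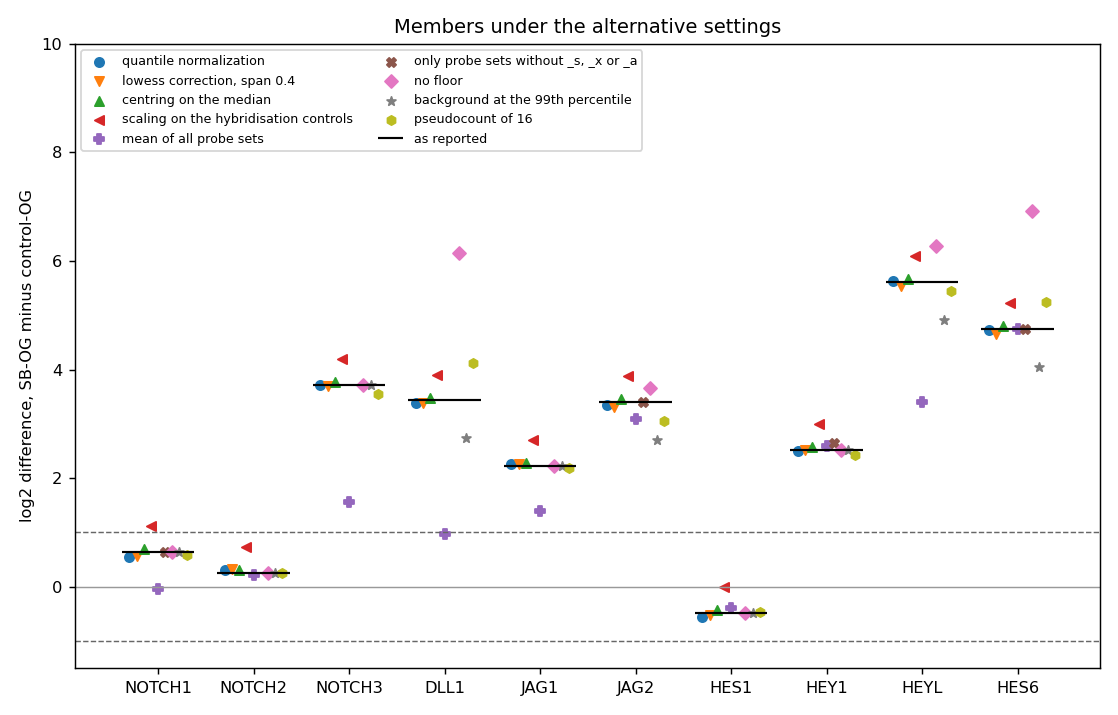
Log2 difference, SB-OG minus control-OG, of each member as reported (black bar) and under up to 9 other settings (coloured marks), with dashed lines at 2-fold. NOTCH3, JAG1, JAG2, HEY1, HEYL and HES6 stay above 2-fold under all settings run, DLL1 reaches 0.97 in the mean of its probe sets, and NOTCH1 spans -0.04 to 1.11.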

How the data were processed

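Expression was measured on 2 arrays, 1 per culture condition, grouped by sample title. The authors deposited linear intensity values for 54675 probe sets per array. The software that summarised the probes was not given in the sources used here. With 2% trimmed at each end, both arrays had a mean of 150, so they appear scaled to 1 level and a change in the total RNA of a cell cannot be seen. Medians were 22.6 and 21.8. Names came from the 2016 platform annotation, with symbols updated by gene ID, and those with 1 gene were kept (41091). Background came from 217 probe sets for 176 genes of families assumed silent: olfactory receptors, taste receptors, defensins, keratin-associated proteins and late cornified envelope proteins. Genes were counted at 2-fold, with no test. Members and lists were chosen with earlier results of these data known. All members were named, with the pathway genes at least 2-fold apart whose other probe sets, after the floor, did not oppose them and a fixed set of core genes; NUMBL was left out by this rule. Other genes with values were named after these were seen. The calculation was tested on simulated data. Software was matplotlib 3.10.9, statsmodels 0.14.6, scipy 1.17.1, pandas 2.3.3, numpy 2.4.6 and Python 3.11.15.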

Additional observations from a re-analysis of the deposited data

How the results depend on the processing

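Alternatives were centring, quantile or lowess normalization, scaling on the hybridisation controls, the mean of a gene's probe sets, a pseudocount of 16 or nothing in place of the floor, a stricter background (99th percentile), a threshold of 3-fold, and only probe sets whose name lacks the marks _a, _s and _x of possible cross-hybridisation. No member was 2-fold lower under any of these. With probe sets specific by name, 3 members were 2-fold higher, of only 4 that had such a probe set above background. The members' median was 3.44 with the hybridisation controls and 1.47 with the mean of all probe sets, which takes in those under background. Of the other pathway genes, 15 were 2-fold higher and 4 lower with the hybridisation controls, and their median was then 0.41. The count lower was 5 with the mean of all probe sets and 4 at 3-fold, against 9 as reported and 12 with quantile normalization, without a floor and with the pseudocount. Bounds moved with the floor: without it, the log2 difference was 6.15 for DLL1, 6.28 for HEYL and 6.92 for HES6. No paired analysis was possible because each condition has 1 array.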
